A study of Caenorhabditis elegans with 2 samples.

Results

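The 300 regions described here were the strongest autosomal ChIP-seq peaks of eGFP-tagged PAX-1 that lay outside genes and away from protein-coding starts in late Caenorhabditis elegans embryos. They were chosen from the pooled peak list by 3 criteria. The peak was not on chromosome X or the mitochondrial DNA, its summit was more than 1000 bp from every protein-coding transcript start, and its summit lay in no annotated gene of any biotype. Of 30000 pooled peaks, 24672 were autosomal and 5360 met the distance and gene criteria, and the 300 with the highest signal were taken. The signal is the authors' own value per peak, on a scale that the sources used here do not state, so it served only to rank and describe peaks. The signal, the distance from starts and the intergenic position chose the regions and are given as description.

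The embryos were of strain OP117, which carries the integrated transgene wgIs117 with eGFP-tagged pax-1 in an unc-119(ed3) III mutant background. Whole animals of mixed sex were pooled, so a peak is an average over all embryonic cells and the tagged protein came from a transgene. The labels name a late embryonic stage of unknown age, and 2 biological replicates of this 1 group, with no second group for comparison. A control alignment entered the authors' calls and was not analysed here, so regions that immunoprecipitate regardless of PAX-1 cannot be told apart from its sites. No list holds read counts, so the depth of each replicate is unknown.

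Pax proteins are transcription factors that bind DNA through a paired domain, and some also carry a homeodomain. Members of the family act in the making of organs and sense structures in many animals. The genome of C. elegans is compact, and most known regulatory sequence lies close to genes. Regulators of development often have longer intergenic neighbourhoods, where control elements lie apart from the promoter. Some regions of the genome are occupied by many unrelated transcription factors in ChIP experiments, and data on 1 factor do not separate them from sites of that factor.

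Short sequences recurred at the summits of these regions. The 7 windows below, which reach 75 bp to either side of the summit, are shown because each holds an overlapping pair of motifs. Of the 14 motifs searched, these 2 differed most, in percentage points, between the members and the other distal intergenic peaks. For this the others were weighted to the members' G+C content. The 14 were chosen with earlier results of these data known, so this order is not independent of those results. Each window is named by the nearest protein-coding start. It is printed 5′ to 3′ on the plus strand of ce11, from the RefSeq sequence of that assembly. Capitals mark GACGCAG on either strand and the second motif, AGAGACG, on either strand.
gly-5, chrIII:13182122-13182272: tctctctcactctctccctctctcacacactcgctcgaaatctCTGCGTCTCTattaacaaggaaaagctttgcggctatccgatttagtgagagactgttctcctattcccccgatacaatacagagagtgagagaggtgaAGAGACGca
F54F12.1, chrIII:13061241-13061391: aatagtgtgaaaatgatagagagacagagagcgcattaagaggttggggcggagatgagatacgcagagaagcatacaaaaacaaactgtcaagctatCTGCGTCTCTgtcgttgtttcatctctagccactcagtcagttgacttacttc
Y17G7B.17, chrII:12102543-12102693: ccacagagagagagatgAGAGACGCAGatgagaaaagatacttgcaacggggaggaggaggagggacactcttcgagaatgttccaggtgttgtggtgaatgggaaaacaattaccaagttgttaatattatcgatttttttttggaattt
pha-4, chrV:20749171-20749321: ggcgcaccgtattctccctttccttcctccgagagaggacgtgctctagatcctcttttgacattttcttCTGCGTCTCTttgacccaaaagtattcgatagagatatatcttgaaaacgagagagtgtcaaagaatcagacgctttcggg
C46F11.6, chrIII:3677509-3677659: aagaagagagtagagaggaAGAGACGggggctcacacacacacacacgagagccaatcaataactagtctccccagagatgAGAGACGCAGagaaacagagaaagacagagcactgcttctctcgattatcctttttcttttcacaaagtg
jmjd-2, chrII:14244608-14244758: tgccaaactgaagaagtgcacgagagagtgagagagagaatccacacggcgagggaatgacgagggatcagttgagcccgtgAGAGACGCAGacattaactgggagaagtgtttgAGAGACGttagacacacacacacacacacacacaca
madf-1, chrIV:828556-828706: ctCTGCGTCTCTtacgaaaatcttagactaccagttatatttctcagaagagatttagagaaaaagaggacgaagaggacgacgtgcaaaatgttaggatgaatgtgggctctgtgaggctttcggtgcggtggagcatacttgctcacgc

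In all 7 windows the motifs were joined into AGAGACGCAG or its reverse complement. At gly-5, F54F12.1, pha-4 and madf-1 the plus strand held the reverse complement. The joined form was present in 38 of the 300 members (12.7%), which were all of the 38 windows that held both motifs. It occurred in 41 of the 5060 other distal intergenic peaks (0.810%), and in 4.41% of them after weighting to the G+C content of the members. The weighted share rests on those 41 windows, and no spread was computed for it. Among the 300 strongest autosomal promoter peaks, with a summit within 500 bp of a protein-coding start, the share was 9.67%. Among the 300 strongest intronic autosomal peaks it was 5%, and 0.412% of all 151-bp tiles of the autosomes held it.

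Most of the strongest members had neither motif. The windows of the highest and the fifth highest member are shown for contrast, in the same layout, and hold no capitals.
T02E9.6, chrV:11335882-11336032: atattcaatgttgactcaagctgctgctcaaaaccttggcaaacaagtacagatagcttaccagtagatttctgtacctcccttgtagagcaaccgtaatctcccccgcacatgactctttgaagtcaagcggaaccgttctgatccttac
cam-1, chrII:9313457-9313607: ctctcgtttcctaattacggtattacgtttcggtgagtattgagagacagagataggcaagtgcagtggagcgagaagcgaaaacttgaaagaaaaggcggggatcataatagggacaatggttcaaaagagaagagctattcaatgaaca

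The highest member, nearest to T02E9.6 (chromosome V, 11335785 to 11336128), had a signal of 126.3 in replicate 1 and 54.1 in replicate 2, and 177.2 in the pooled list. The second, nearest to Y48G8AR.3 on chromosome I, had 95.6 and 71.8 in replicates 1 and 2 and 166.1 in the pooled list. The third, 2280 bp upstream of R09E10.5 on chromosome IV, had 115.3 and 52.6, and 166.1 pooled. All 3 stood within rank 65 of both replicate lists.

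The next highest member lay 5193 bp upstream of gly-5, which encodes an enzyme that starts mucin-type O-glycosylation (chromosome III, 13182025 to 13182368), and holds the joined motif shown above. Its signal was 94.9 in replicate 1 and 60.3 in replicate 2, ranks 51 and 45 of those lists. A second member stood 1264 bp upstream of gly-5, without GACGCAG, at 56.8 in replicate 1 and 23.7 in replicate 2. The first of the pair was higher in both replicates.

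A member 3228 bp upstream of cam-1, which encodes a receptor tyrosine kinase of the Ror family that acts in cell migration and Wnt signalling (chromosome II, 9313360 to 9313703), had 113.5 in replicate 1 and 45.7 in replicate 2. Upstream of mig-14, which encodes the Wntless protein needed for Wnt secretion, a member 2133 bp from the start had 57.9 in replicate 1 and 46.9 in replicate 2. The peak 1868 bp upstream of hif-1, the hypoxia-inducible factor, had 75.3 and 25.4 in the same order. The peak 1142 bp upstream of mtm-3, a myotubularin-family gene, had 80.1 and 36.3. In each of these 4 the value was higher in replicate 1.

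The other windows with the joined motif printed above ranged widely in replicate 2. The F54F12.1 member had nearly equal values, 61.2 in replicate 1 and 59.5 in replicate 2. The Y17G7B.17 member had 62.5 and 41.1, the madf-1 member 45.8 and 24.3. The member 1080 bp upstream of jmjd-2, which encodes a histone demethylase of the Jumonji family, had 51.5 in replicate 1 and 21.4 in replicate 2. The C46F11.6 member had 64.1 in replicate 1 and 12.9 in replicate 2, where it ranked 13868. Among the printed windows the joined motif was thus present at peaks high in both replicates and at peaks high in replicate 1 alone. Members with the joined motif that are not printed also included peaks that were high in replicate 2 alone. The nhr-70 member ranked 2925 in replicate 1 and 299 in replicate 2. The tag-250 member ranked 12755 in replicate 1 and 260 in replicate 2.

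**Figure D1:**
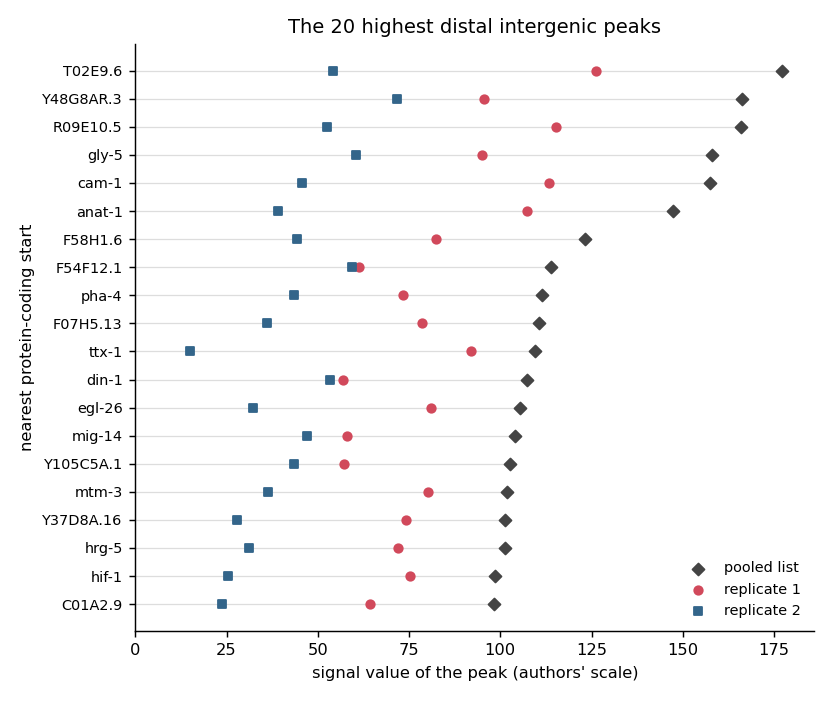
Signal values of the 20 highest members that had a peak in both replicate lists, in the pooled list (diamonds), replicate 1 (circles) and replicate 2 (squares). The rows are named by the nearest protein-coding start, and the x axis is the authors' signal value per peak. Replicate 1 was above replicate 2 in all 20, by the widest ratio at ttx-1 (91.9 against 14.9). The median of the 300 strongest promoter peaks was also higher in replicate 1 (52.1 against 31.8).

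The ttx-1 region of chromosome V held 3 members in the 11739 bp between ttx-1 and fre-1. ttx-1 encodes a homeodomain protein of the Otx class that specifies a thermosensory neuron. The member 4413 bp upstream of ttx-1 had 91.9 in replicate 1, rank 59, and 14.9 in replicate 2, rank 8667. The one 9175 bp upstream had 25.4 in replicate 1 and 30.3 in replicate 2. The one 10926 bp upstream, which was also 814 bp from the end of fre-1, had 37.0 and 21.4. The replicates thus ordered these 3 peaks differently. In the pooled list they had 109.5, 51.1 and 45.3.

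At pha-4, the gene for the FoxA factor that specifies the pharynx, 3 members lay on both sides of the gene. The one beyond its end (chromosome V, 20761810 to 20762153), 5072 bp from the nearest start of pha-4 and 1665 bp from its end, had 73.3 in replicate 1 and 43.3 in replicate 2. The one 3806 bp upstream, between pha-4 and dnj-25, holds the joined motif shown above and had 71.1 in replicate 1 and 24.1 in replicate 2. The third, 601 bp from the end of pha-4, had 42.8 and 19.1. Another member of the same upstream interval was nearer to dnj-25, an auxilin gene, with 36.3 in replicate 1 and 21.4 in replicate 2. All 4 were higher in replicate 1, and the order of the first 3 was the same in both replicates.

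The members nearest to din-1, which encodes a corepressor that partners the nuclear receptor DAF-12, formed 1 of the 2 runs in which at least 3 summits followed each other within 2000 bp. Their summits spanned 1657 bp of the 13137 bp between din-1 and ghi-1 on chromosome II. At 2186 bp upstream of din-1 the signal was 57.0 in replicate 1 and 53.3 in replicate 2. At 2906 bp it was 39.1 and 26.4, and at 3843 bp it was 41.6 and 53.5. Their G+C contents were 37.1%, 19.9% and 29.8%, and only the first held GACGCAG. The last was higher in replicate 2.

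The other run held 4 members over 3843 bp of the interval between gldi-3 and mtrr-1, the methionine synthase reductase gene, on chromosome II. From left to right the signals in replicate 1 were 27.7, 51.6, 26.7 and 40.0. In replicate 2 they were 11.4, 20.8, 31.7 and 14.7. The last of them had a summit 1001 bp from the start of mtrr-1 and was the member closest to any protein-coding start. The replicates differed in which of these peaks was highest. A further 11 stretches held 2 members each, and 29 members in all had another member within 2000 bp. The median gap from a member to the next nearest was 57444 bp.

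The members nearest to egl-27, which encodes an MTA1-like protein with a GATA-type zinc finger, showed the opposite balance between the replicates. All 3 lay upstream, at 1271, 5469 and 9441 bp from the nearest start, in the 18574 bp between snt-1 and egl-27 on chromosome II. Their signals in that order were 12.8, 17.9 and 17.2 in replicate 1 and 30.2, 36.7 and 22.4 in replicate 2. In the pooled list they were 44.2, 45.3 and 39.6. All 3 were higher in replicate 2.

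The nearest starts of the 300 members belonged to 273 genes, of which 23 were nearest to at least 2 members and 4 to 3 (pha-4, ttx-1, din-1 and egl-27). The homeobox list was nearest to 6 members (2%, against 1.48% of the other distal intergenic peaks), of which 3 were the ttx-1 peaks. Another homeobox gene, ceh-58, had a member with 39.2 in replicate 1 and no peak in replicate 2. As a neighbour on either side, homeobox genes flanked 10 members (3.33%, against 2.49%).

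Nuclear hormone receptor genes were nearest to 6 members (2%, against 1.96%), the highest at nhr-61 (65.6 in replicate 1 and 18.4 in replicate 2) and nhr-88 (45.2 and 23.8). Genes of the basic helix-loop-helix list were nearest to 3 (1%, against 0.613%), which were hif-1, mml-1 (46.8 in replicate 1 and 21.5 in replicate 2) and sbp-1 (24.7 and 22.1). The last 2 genes encode a Mondo-family factor and the SREBP homologue, regulators of metabolism. The GATA and forkhead lists each reached 3 members (1%, against 0.237% and 0.158%), through egl-27 and pha-4 alone. The pharynx list did so (against 0.0988%) through pha-4 alone.

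Chaperone genes were nearest to 3 members (1%, against 0.336%). The small heat shock protein genes hsp-12.2 and hsp-12.1 had 68.5 and 62.3 in replicate 1 and 39.1 and 20.8 in replicate 2, and dnj-25 was the third. Neuropeptide genes were also nearest to 3 (1%, against 1.56%), namely ins-13, an insulin-like gene (64.1 in replicate 1 and 23.9 in replicate 2), nlp-40 (55.8 and 28.5) and nlp-8 (61.4 and 17.5). Chemoreceptor genes were nearest to 0 members, against 179 of the 5060 others (3.54%), and flanked 4 members (1.33%, against 6.03%). Collagen, ribosomal protein and C-type lectin genes were nearest to 1 member each (emb-9, rps-28 and clec-91). This was 0.333% each, against 0.889%, 0.217% and 0.791% of the others. The lists of Pax, Sox, T-box, histone, cytochrome P450, F-box, body wall muscle, intestine, epidermis, neuron and glia genes were nearest to 0 members. Each of these lists was nearest to at most 0.534% of the others (F-box), and the tissue lists hold only 2 to 5 genes each. No absence is therefore read from these zeros. The nearest start is given for orientation, since these data do not tie a distal peak to a gene.

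The authors' thresholded list, derived from both replicate lists and the pooled list, overlapped 102 of the 300 members by at least 1 bp (34%, 95% Wilson interval over peaks 28.9% to 39.5%), and 100 of these had identical coordinates. Over the whole class of distal intergenic autosomal peaks 2.26% did so, and over all autosomal pooled peaks 2.76%. The pooled signal that chose the members also helped to make the thresholded list, so nothing is read from this share. Of the 300 strongest promoter peaks all 300 overlapped it, and of the 300 strongest intronic peaks 52. These sets also differed in signal, with medians of 79.4 for promoters, 49.9 for the members and 39.03 for introns.

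The lowest members had signals of 37.8465 (nearest to mekk-3), 37.8365 (mab-23) and 37.8338 (Y116A8B.1). The next peaks of the class had 37.8332 (cutl-26), 37.8078 (F35H10.3) and 37.7953 (C05D12.7). The boundary therefore did not fall at a gap in the values. The members held pooled ranks 30 to 2092. Their −log10 q ran from 0.615 to 1.85 with a median of 1.497, against a median of 0.0382 over all pooled peaks.

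A peak was present in the list of replicate 1 for 296 members and in that of replicate 2 for 285, and 281 members (93.7%) had one in both. The other distal intergenic peaks had one in both replicates in 33.3% of cases and all autosomal pooled peaks in 36.9%. Among the 300 strongest promoter peaks the share was 99%, and among the 300 strongest intronic peaks 87.7%. The replicate lists share reads with the pooled list, so a high share follows in part from how the members were chosen. Signals of the members ran from 8.15 to 126.3 in replicate 1 (median 33.7) and from 9.55 to 71.8 in replicate 2 (median 22.9). Whether the 2 lists share a scale is not stated, so the levels of a member are compared between replicates only as deposited values.

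**Figure D2:**
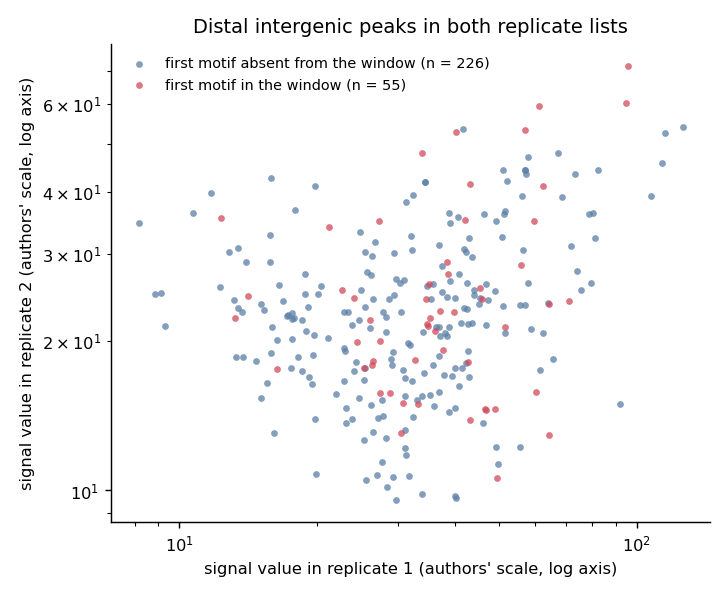
Signal of each member with a peak in both replicate lists, replicate 1 on the x axis and replicate 2 on the y axis, both logarithmic and on the authors' scale. Red points are members whose window holds GACGCAG (first motif) and blue points are the others. The cloud is broad: the ranks in the 2 lists had a Spearman's rho of 0.229 over 281 members.

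Agreement on rank was looser than presence. Within rank 2092, the pooled rank of the lowest member, stood 221 members in replicate 1 and 170 in replicate 2, 122 of them in both. A further 99 were within that rank in replicate 1 only, 48 in replicate 2 only and 31 in neither. Of the 300 strongest promoter peaks, 243 were within it in both, and of the 300 strongest intronic peaks 59. Of all 24672 autosomal pooled peaks, 778 were. The lowest pooled signal was 62.8 in the promoter set, 37.8 in the members and 32.9 in the intronic set. The rank therefore does not cut these sets alike. Spearman's rho between the replicate ranks was 0.229 over the 281 members with both values, and 0.134 and 0.115 in the promoter and intronic sets. These correlations are across peaks that were chosen by a signal that draws on both replicates, and they are given as description.

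The members that replicate 1 ranked high and those that replicate 2 ranked high differed in composition. The median G+C was 44.04% for the 122 members within the rank in both replicates and 43.7% for the 99 in replicate 1 only. It was 33.1% for the 48 in replicate 2 only and again 33.1% for the 31 in neither. GACGCAG was present in 27, 21, 6 and 2 of these groups, or 22.1%, 21.2%, 12.5% and 6.45%. Windows that were at least 50% soft-masked, which marks repeats and low-complexity sequence in the reference, made up 5.74%, 10.1%, 27.1% and 29.0%. Thresholded peaks numbered 83, 18, 1 and 0. G+C content was thus higher in the groups that were high in replicate 1, whether or not they were also high in replicate 2. The median pooled signal was 69.0, 47.2, 42.5 and 40.9 in the same order of groups. The part of G+C content or of signal in the difference was not tested.

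Of the 19 members with no peak in a replicate list, 15 lacked one in replicate 2 and 4 in replicate 1. The only one among the 50 highest members was nearest to ttbk-7, a gene of the tau tubulin kinase-like family (chromosome V, 12897230 to 12897573), with 62.7 in replicate 1 at rank 180. The 4 that lacked a peak in replicate 1 were nearest to appg-2, ptc-1, efa-6 and ulp-2, with 29.5, 23.1, 26.1 and 25.9 in replicate 2. ptc-1 encodes a Patched-family protein, efa-6 an exchange factor for Arf GTPases and ulp-2 a SUMO protease. The G+C of these 4 windows ran from 25.8% to 37.7%.

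The windows of the members were richer in G and C than those of other distal intergenic peaks. The median G+C was 42.4% (quartiles 34.4% and 47.0%) for the members and 30.5% (26.5% and 35.8%) for the 5060 others. The strongest promoter peaks had 43.05% and the strongest intronic peaks 38.4%, with 31.8% over all autosomal pooled peaks. The highest member value was 64.2%, at the peak nearest to lelo-2, which had 14.1 in replicate 1 and 24.7 in replicate 2. The lowest was 15.9%, at the peak nearest to Y73E7A.6, with 17.5 and 17.6.

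The step from the members to the first part of the rest was wider than any step between the parts given next. Each part holds more peaks than the members, so this places no break at the members' boundary. GACGCAG was present in 24% of the 150 highest peaks of the class, 18.7% of the members and 12.3% of the 600 highest. The median G+C of these nested sets was 44.4%, 42.4% and 37.1%. Both thus also went down within the members. When the 5060 others were ordered by signal and cut into 5 parts of 1012, the median G+C was 31.1% in the highest part and 30.5% in each of the others. GACGCAG was present in 18.7% of the members and in 3.46%, 1.58%, 0.988%, 0.988% and 1.09% of these parts. AGAGACG was present in 18.3% of the members and in 3.36%, 2.17%, 0.889%, 1.19% and 1.58% of the parts. GAGAGAG, a purine repeat, was present in 22.7% and in 4.94%, 4.15%, 3.75%, 2.47% and 2.67%. These shares thus also went down from the first to the third part of the rest. Of the 138 windows of the class with GACGCAG, 40.6% belonged to members, and of the 5222 without it 4.67% did. Members were 300 of the 5360 peaks of the class. These 2 shares are not weighted for G+C content, which also differed between members and others.

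**Figure D3:**
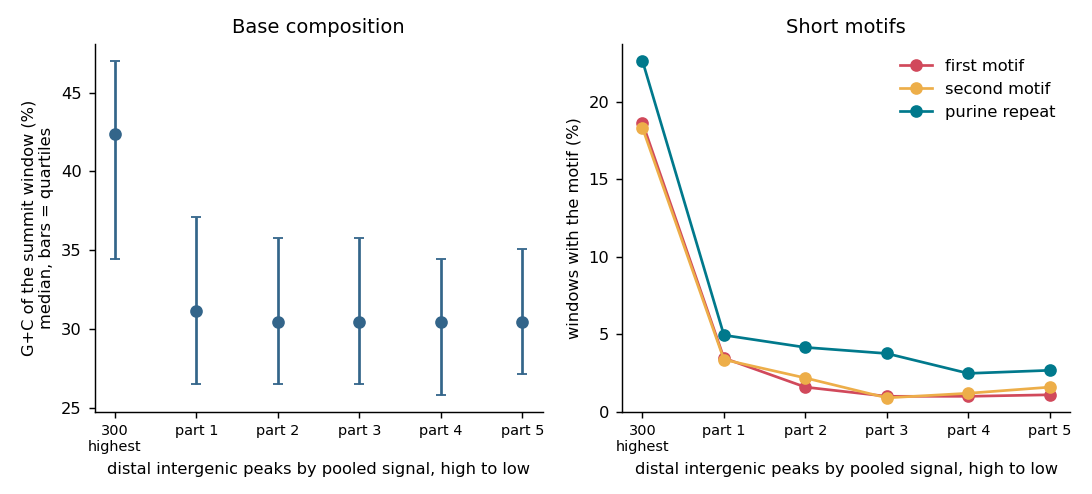
Left, G+C content of the 151-bp windows of distal intergenic peaks in order of pooled signal, as the median with quartiles as bars, for the 300 members and for the 5060 others in 5 parts of 1012. Right, the share of windows with GACGCAG (first motif), AGAGACG (second motif) and GAGAGAG (purine repeat) in the same parts. All 4 quantities were highest in the members, and the 3 motifs were below 5% in every other part.

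After direct weighting of the other distal intergenic peaks to the members' G+C content, in steps of 5 percentage points, part of the difference remained. GACGCAG was present in 56 members (18.7%, 95% Wilson interval over peaks 14.7% to 23.5%), against 1.62% of the others unweighted and 7.12% weighted. The unweighted share was 82 windows, and no spread was computed for the weighted share. Some members overlap each other, as at C33D9.13, while the intervals take peaks as separate, so they do not serve as a test. AGAGACG was present in 55 (18.3%, 14.4% to 23.1%), against 7.21% weighted. GAGAGAG was present in 68 (22.7%, 18.3% to 27.7%), against 12.1% weighted. GCGCGC was present in 23 (7.67%), against 3.06% weighted and 16% of the strongest promoter peaks. In the promoter set GACGCAG was present in 17%, AGAGACG in 15.7% and GAGAGAG in 13.3%. All 4 motifs were searched on both strands, GACGCAG and AGAGACG overlap in the joined form, and no test was made across peaks. GACGCAG contains hexamers that had already stood out in the thresholded list of the same data, so its share is not independent of those results. When the 300 highest were taken from a replicate's own list by the same criteria, GACGCAG was present in 19.3% for replicate 1 and 11.3% for replicate 2, and AGAGACG in 21.7% and 10.7%. GCGCGC was present in 6.67% and 3.67%, and its ratio to the weighted share was 2.50 in the pooled list, 1.90 in replicate 1's own list and 1.32 in replicate 2's.

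The motifs known from transcription factor families differed by fewer percentage points than either motif of the joined form. GTCACG, a core of vertebrate paired-domain sites, was present in 8 members (2.67%), against 2.86% of the others weighted and 8.67% of the strongest promoter peaks. The longer CGTCACG was present in 2 members (0.667%), against 0.857% weighted and 5.33% of promoter peaks. The homeodomain core TAATTA was present in 3.67% (4.85% weighted) and the GATA core TGATAA in 6.67% (10.7% weighted). The E-box CACGTG was present in 1.33% (2.98% weighted), and the AP-1 site TGACTCA also in 1.33% (1.71% weighted). The forkhead core TGTTTAC was present in 2.67% (2.53% weighted), ATCGAT in 5% (3.49%) and GGCGGG in 3.33% (6.80%). The T run TTTTTTT was present in 18.7% of members and 26.9% of the others weighted. The ratio of the members' share to the weighted share lay on both sides of 1 over the alternatives tried for 7 of these motifs, so no direction is given for them. It ran from 0.664 to 1.44 for GTCACG, from 0.568 to 3.42 for CGTCACG (highest in replicate 2's own list), and from 0.273 to 2.16 for TGACTCA. It ran from 0.518 to 1.003 for TAATTA, from 0.525 to 1.08 for TGATAA, from 0.418 to 1.10 for CACGTG and from 0.419 to 1.69 for TGTTTAC. For TAATTA and TGATAA the highest ratio was also that of replicate 2's own list, where the shares were 7.67% and 12.7%. The ratio stayed above 1 for ATCGAT (1.09 to 1.95), and below 1 for GGCGGG (0.412 to 0.783) and TTTTTTT (0.472 to 0.931). Without weighting, ATCGAT was present in 5.37% of all autosomal pooled peaks and 5.36% of the autosome tiles, so the members' 5% was not above them. GGCGGG was present in 2.92% and 2.65% of these, below the members' 3.33%. TTTTTTT was present in 42.3% and 30.2%, above the members' 18.7%. These shares say only which letters lie in these windows.

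All 2080 hexamers were counted with their reverse complements, and the 8 with the largest excess over the weighted share are given here. ACGCAG was present in 24.7% of members (9.01% weighted), CGCAGA in 25.3% (11.2%), CGTCTC in 26.3% (13.1%) and GAGACA in 21.7% (10.5%). AGAGAG was present in 37% (22.3% weighted), GAGAGA in 40% (26.0%), AGAGAT in 24% (12.1%) and AGAGAA in 38.3% (26.4%). At the other end stood AAAAAA, with 31.7% of members and 47.0% weighted, and CAAAAA, with 28.3% and 42.03%.

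Both motifs of the joined form were most frequent near the summit. In bins of 50 bp the share of members with GACGCAG was 4% and 8.33% in the 2 bins before the summit and 6.33% and 5% in the 2 after it. It was 2.33% or less in every bin more than 100 bp away. The strongest promoter peaks had 9.33% and 6.33% in the 2 central bins, and the other distal intergenic peaks 0.613% and 0.573%. AGAGACG behaved alike, with 6.67% and 8.33% in the 2 central bins of the members. The purine repeat GAGAGAG was also most frequent there. Its share of members was 10.3% and 10% in the 2 bins before the summit, 9% and 10.7% in the 2 after it, and 5.33% or less farther out. The position near the summit was thus not particular to the joined form. TAATTA had 1.33% in both of these bins and up to 4.67% farther out.

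**Figure D4:**
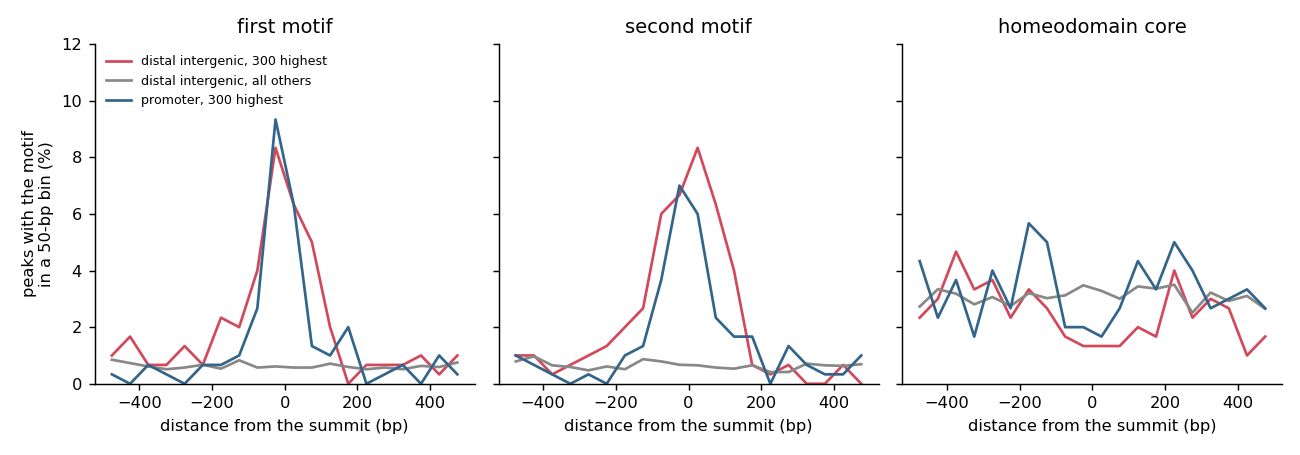
Share of peaks with GACGCAG (first motif), AGAGACG (second motif) and TAATTA (homeodomain core) in bins of 50 bp, from 500 bp before to 500 bp after the summit, for the members (red), the other distal intergenic peaks (grey) and the 300 strongest promoter peaks (blue). The first and second motif peak at the summit in the members, at 8.33% each, and TAATTA is at 1.33% there. GAGAGAG, which was also most frequent near the summit, is not drawn.

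Members with GACGCAG had a median signal of 37.4 in replicate 1 and 22.3 in replicate 2, and members without it 32.2 and 22.9. The order of these medians was not the same in the 2 replicates. The signals share reads with the pooled value that chose the members, so they are given as description. The median G+C was 46.4% with the motif and 41.06% without it.

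Repeat-masked sequence was less common at the members than in the rest of the class. Windows at least 50% soft-masked numbered 39 (13%), against 43.0% of the others, 16.7% of the strongest promoter peaks and 26% of the strongest intronic peaks. Taken from each replicate's own list, the 300 highest had 6.67% at least 50% masked in replicate 1 and 23.7% in replicate 2. Windows with no masked base numbered 84 (28%), against 4.96%, 8% and 20.3%. CpG pairs averaged 6.01 per window in the members, 3.62 in the others and 9.55 in promoter peaks. Only 2 members had another genomic copy of at least 90% identity over at least 80% of the window, nearest to ins-13 (1 copy) and lgc-26 (11 copies). The lgc-26 peak had 11.7 in replicate 1 and 39.8 in replicate 2.

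The members were spread over all 5 autosomes, with 64 on I, 54 on II, 66 on III, 66 on IV and 50 on V. Per megabase this was highest on III (4.79) and lowest on V (2.39). All autosomal pooled peaks were likewise densest on III (342.8 per megabase) and sparsest on V (243.9). Chromosome IV held 22% of the members and 28.6% of the other distal intergenic peaks. With each chromosome cut into 3 equal parts, the middle part held 115 members (38.3%), against 32.5% of the others and 32.9% of all autosomal pooled peaks.

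The median distance from a member to the nearest protein-coding start was 2361.5 bp, against 2707 bp for the others, and 44 members (14.7%) were more than 5 kb away. The summits closest to a start were those at mtrr-1 (1001 bp), M01H9.10 (1002 bp) and F53C3.6 (1007 bp). The member farthest from any start was 16598 bp from aakg-1, an AMP-activated kinase gamma subunit gene (chromosome III, 12528042 to 12528385), with 19.8 in replicate 1 and 41.1 in replicate 2. That summit was also 162 bp from the end of sql-1, so a distance from starts does not mean a distance from genes. The summit was upstream of the nearest start in 228 members (76%) and in 71.7% of the others.

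The genes on both sides of a member pointed away from each other in 110 cases (36.7%), in the same direction in 165 (55%) and toward each other in 25 (8.33%). The other distal intergenic peaks had 34.1%, 53.9% and 11.96%. The nearest gene boundary was a transcript end for 130 members (43.3%, against 45.02%). An end of a coding gene was within 500 bp for 53 members (17.7%, against 13.9%).

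Any non-coding gene was within 500 bp of the summit for 88 members (29.3%), against 28.2% of the others, and within 200 bp for 55 (18.3%, against 19.1%). Each peak was counted once, by its nearest non-coding gene, so the shares of the types below depend on each other, and their differences were not tested. A gene of the annotation's ncRNA type, a class of short or unclassified transcripts, was the nearest non-coding gene and within 500 bp for 51 members (17%), against 7.87% of the others. Among them were the peaks nearest to T02E9.6 and F58H1.6, each 43 bp from such a gene, and F58H1.6 had 82.4 in replicate 1 and 44.2 in replicate 2. A snoRNA gene, whose product guides the modification of other RNAs, was within 500 bp for 7 (2.33%, against 0.573%). Their signals in replicate 1 ran from 19.7 to 57.0 and in replicate 2 from 10.7 to 53.3. A piRNA gene, which makes a small RNA of the germline and belongs to a family concentrated on chromosome IV, was within 500 bp for 18 (6%, against 14.8%). The microRNA gene cel-mir-53 lay 114 bp from the summit of the member near hrg-5 that had 71.9 in replicate 1 and 31.1 in replicate 2.

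**Figure D5:**
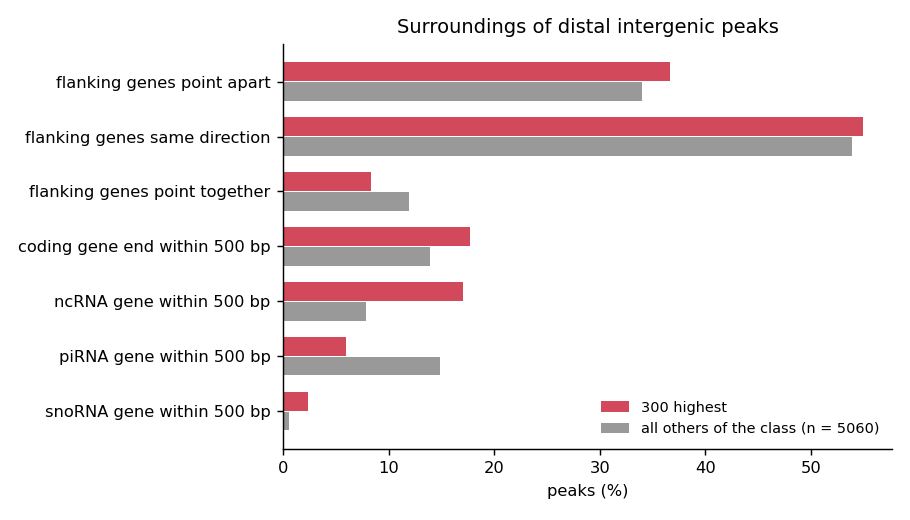
Share of the 300 members (red) and of the 5060 other distal intergenic peaks (grey) by the direction of the flanking protein-coding genes, a coding gene end within 500 bp and the nearest non-coding gene within 500 bp. The bars start at 0. The widest differences are at piRNA genes (6% against 14.8%) and ncRNA genes (17% against 7.87%).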

How the data were processed

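ChIP-seq peak lists of 2 biological replicates (1 group) were used on build ce11. The authors called peaks and background in each replicate and in the pool of both against a control alignment, per the labels' file listing, and fed them to the irreproducible discovery rate procedure, which gave the thresholded list. Aligner, caller and threshold were not given in the sources used here. Each deposited list gives a signal value and a −log10 q-value for each peak. Both are the authors' values, used to describe and rank peaks within a list, and the scale of the signal is not stated. The deposited coordinates count starts from 0 and are printed from 1. Depth is unknown.

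Summits were placed on the Ensembl 115 annotation of WBcel235, and windows of 75 bp on each side were read from the RefSeq sequence of the same assembly. A peak of another list counted as shared at 1 bp of overlap. In a replicate list the highest overlapping peak gave the signal and rank. Motif and hexamer shares of the other distal intergenic peaks were weighted to the members' G+C content in steps of 5 percentage points. Copies were sought with BLAST+ 2.17.0. The hexamer counting and weighting step was tested on simulated data. Peaks of 1 group are not replicates, so no significance test was made, and Wilson intervals cover the number of peaks only. p-values over peaks were not computed.

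Members, motifs, 23 gene lists and comparison sets were chosen with earlier results of these data known, and the symbol patterns that fill the lists and the joined motif were written after the files had been seen. Named are the 20 highest members with a peak in both replicates, members among the 50 highest that lack one, 3 members and 3 peaks at the boundary, runs of 3 or more, the distance extremes, up to 4 members per gene list, the 8 hexamers with the largest excess and all 14 motifs. Of the 20, those without a described gene appear in the plot of the highest peaks. Other names (the second gly-5 member, members lacking a replicate 1 peak, near snoRNA or microRNA genes, or with extreme G+C or copies, and the windows printed) were chosen after their values were seen. Alternatives were distances of 500 and 2000 bp, the 150 or 600 highest peaks, coding genes only, each replicate's own list, other overlaps and windows. The software was Python 3.11.15 with scipy 1.17.1, pandas 2.3.3, numpy 2.4.6 and matplotlib 3.10.9.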

Additional observations from a re-analysis of the deposited data

How the results depend on the processing

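No paired analysis was possible because the series holds 1 group. The share of members overlapping the thresholded list (34%) was 43.3% at 500 bp from a start, 19.3% at 2000 bp, 67.3% for the 150 highest, 17.5% for the 600 highest and 40.3% outside coding genes only. The share with a peak in both replicates (93.7%) was 85.3% at 2000 bp, 98.7% for the 150 highest, 84% for the 600 highest and 86% both with the summit inside the other peak and with a reciprocal overlap of 50%. Median distance (2361.5 bp) was 1565 bp and 3542 bp at 500 and 2000 bp. Median G+C (42.4%) was 37.7% at 2000 bp, 44.4% for the 150 highest, 37.1% for the 600 highest and 39.9% in windows of 150 bp on each side. The masked share (13%) was 24%, 6%, 23.8% and 8.67% in the same order. The middle part of the chromosomes held 31.3% at 2000 bp (38.3%). Of the 8 leading hexamers 5 were kept at 2000 bp and 5 with the 600 highest. The cause of these moves was not tested.

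With each replicate's own 300 highest peaks the ranges were 28.3% to 34% for the thresholded share, 71.3% to 77.3% for a peak in both replicates, 35.4% to 44.4% for G+C and 6.67% to 23.7% for the masked share. They were 5% to 10.3% for flanking genes that point toward each other (8.33%), and 4 to 5 of the leading hexamers were kept. Replicate 2's own list gave the lower thresholded share and G+C and the higher masked share. GACGCAG was present in 11.3% of replicate 2's own 300 and 19.3% of replicate 1's. Its ratio to the weighted share (2.62) ran from 2.13 to 3.24 over the alternatives, that of AGAGACG (2.54) from 1.99 to 2.99, that of GAGAGAG (1.88) from 1.58 to 2.43 and that of GCGCGC (2.50) from 1.32 to 2.72. Depth is unknown, so it cannot be said which weak peaks it limits.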
